A study of Homo sapiens with 8 samples.

Results

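The HOX cluster genes and their antisense RNAs are all rows of the deposited count table whose gene name begins with HOXA, HOXB, HOXC or HOXD. The rule used names only and gave 42 of 30386 listed genes, 31 of them protein-coding and 11 antisense or host RNAs. RNA sequencing had been run on human endothelial cells made from WTC-TJP1, an established line of induced pluripotent stem cells. Both groups share this line and were taken at passage 1. The first group, iEC, was endothelial cells (n = 4, libraries C, D, E and F), and the second, iREC, was a matched differentiation to retinal endothelial cells (n = 4, with the same letters). All 8 libraries come from 1 line, and the labels name neither the inducing factors nor whether the letters stand for separate cultures, so p-values measure only the spread between these samples, which may be technical. The libraries held 13739364 to 16971865 counts each, of which HOX rows took 8377 to 17051 in iEC and 6220 to 8597 in iREC.

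HOX genes encode homeodomain transcription factors that give cells their position along the head-to-tail axis of the embryo. They lie in clusters, and within each cluster the genes at the 3′ end (low paralog numbers) are switched on earlier and further forward than those at the 5′ end (high paralog numbers). Retinoic acid, CDX factors and Wnt signals open the clusters, Polycomb complexes keep them silent, Trithorax complexes keep them active, and the TALE proteins (PBX, MEIS and PKNOX) bind DNA together with HOX proteins. Endothelial cells of trunk vessels are known to keep HOX genes on, whereas the forebrain and the eye form in front of the HOX domains. HOXA5 and HOXB5 have been studied as regulators of endothelial quiescence and of VEGFR2, and HOXD8 in lymphatic vessels.

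The HOXB cluster supplied nearly all HOX counts in both cell types, and the part of it that was lower in iREC was uneven. HOXB9, at the 5′ end of the cluster, was 3.43-fold higher in iEC than in iREC on mean level, HOXB2, HOXB4 and HOXB5 1.76- to 2.17-fold higher, while HOXB3 and HOXB7 differed by less than the spread between libraries. HOXA, HOXC and HOXD genes were read at low levels, and none of them passed the test. Of the 42 members, 22 had enough counts to be tested (18 coding, 4 antisense RNAs) and 20 did not. edgeR's quasi-likelihood test with Benjamini-Hochberg adjustment over all 15330 tested genes called a gene at an adjusted p under 0.05. It called 4 HOX members lower in iREC (HOXB9, HOXB2, HOXB5 and HOXB4) and 0 higher, and 18 were not called. The share called lower was 18.2%, beside 11.7% of all tested genes, and the share of all tested genes called higher was 13.2%. A count this near to the background does not by itself set the HOX genes apart. At an unadjusted p under 0.05 there were 5 lower and 1 higher (HOXC8), and limma-voom gave 0 higher while DESeq2 gave 1, again HOXC8. The groups did not overlap for the same 4 members, all lower in iREC, beside 14.6% of all tested genes. The fitted log2 fold change, iREC over iEC, was negative for 14 of the 22, with a median of -0.32 against 0.020 for all tested genes.

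**Figure D1:**
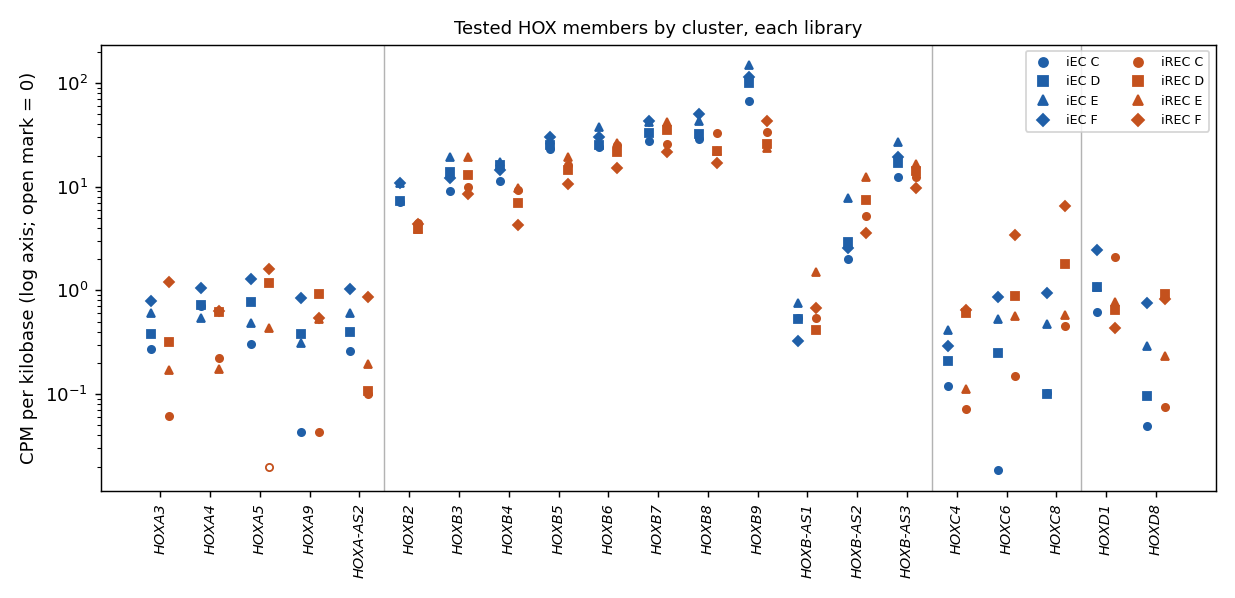
Level of 21 of the 22 tested HOX members in each library, as CPM (counts scaled to the library total) per kilobase of gene length on a log axis, with iEC in blue and iREC in orange, members grouped by cluster, the libraries told apart by the shape of the point and an open mark for a library at 0. The 8 HOXB coding genes lie above the members of the other clusters, except that HOXC8 in iREC F lies above HOXB2 and HOXB4 in that library, and HOXB9 is the highest in iEC.

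Levels are given as CPM, the count scaled to the library total after edgeR's TMM scaling. Summed over its 13 members, the HOXB cluster (chromosome 17) stood at 762 ± 190 CPM in iEC (SD, n = 4) against 432 ± 66.1 CPM in iREC (SD, n = 4), a ratio of 0.566. The libraries ranged from 537 to 989 CPM in iEC and from 353 to 513 CPM in iREC, so the groups did not overlap in this sum. HOXB9 alone averaged 278 CPM in iEC and 81.1 CPM in iREC, whereas the groups overlapped for HOXB3, HOXB6, HOXB7 and HOXB8. The sum is therefore not a measure of each member. The 14 HOXA members (chromosome 7) summed to 11.8 ± 5.89 in iEC and 9.91 ± 8.48 CPM in iREC, the 9 HOXC members (chromosome 12) to 3.26 ± 2.53 and 11.2 ± 13.1 CPM, and the 6 HOXD members (chromosome 2) to 3.86 ± 2.95 and 4.24 ± 0.941 CPM. Those ranges overlapped between the groups for each of these clusters. HOXB rows took 96.0% to 98.5% of all HOX counts in the iEC libraries and 86.3% to 98.3% in the iREC libraries. In bulk RNA, fewer cells of a type and less RNA per cell cannot be told apart.

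Per kilobase of gene length, which allows genes to be compared, HOXB9 led in iEC at 108 ± 34.3 CPM per kilobase (SD, n = 4) and did not overlap with the next gene, HOXB8, at 38.5 ± 9.87. HOXB7 at 36.5, HOXB6 at 29.3 and HOXB5 at 26.7 CPM per kilobase followed in iEC, each overlapping with its neighbour in that order. In iREC, HOXB9 at 31.4 ± 8.68 and HOXB7 at 31.1 ± 9.21 CPM per kilobase overlapped, and HOXB8 at 23.7, HOXB6 at 22.2 and HOXB5 at 15.2 came next. HOXB4, HOXB3 and HOXB2 were the lowest tested HOXB coding genes in both groups, at 9.05 to 14.8 CPM per kilobase in iEC and 4.17 to 12.6 in iREC. The mean level per length thus ran with position in the cluster, from HOXB2 upwards to HOXB9 in iEC, and was flatter at the 5′ end in iREC. In iEC, neighbours overlapped from HOXB8 to HOXB5 and from HOXB4 to HOXB2. The length used covers all annotated exon bases of a gene (7456 for HOXB3), not only those of the transcripts in use. HOXB13, which lies apart from the rest of the cluster, was at 0 to 2 counts in each library.

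HOXB9 (ENSG00000170689, chr17:48621159-48626356, minus strand) belongs to the paralog group that marks the thoracic region of the embryo. Its level was 173, 257, 386 and 296 CPM in the iEC libraries C to F, and 86.6, 67.2, 60.3 and 110.2 CPM in the iREC libraries C to F. Every iEC library lay above every iREC library, and iREC F was the highest of its group. The log2 fold change was -1.78 ± 0.27 (SE), with an adjusted p of 0.00154 by edgeR's quasi-likelihood test, and no exon of another annotated gene overlaps its exons. Among the counts of the HOXB coding genes, HOXB9 took 33.9% to 41.6% in the iEC libraries and 12.9% to 33.5% in the iREC libraries.

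HOXB2 (ENSG00000173917, chr17:48540894-48544989, minus strand) lies at the other end of the cluster and is a hindbrain gene in the embryo. Its level was 16.8, 17.1, 25.6 and 25.1 CPM in the iEC libraries C to F, and 10.47, 9.21, 9.10 and 10.2 CPM in the iREC libraries C to F. The iREC libraries lay close together and all below the iEC libraries. It had a log2 fold change of -1.12 ± 0.19 (SE), with an adjusted p of 0.00302 by edgeR. HOXB-AS1, on the opposite strand, overlaps 3.72% of its exon bases.

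HOXB5 (ENSG00000120075, chr17:48591257-48593961, minus strand) has been described as a regulator of the VEGF receptor gene in endothelial precursors. It was read at 47.3, 51.8, 57.4 and 61.5 CPM in the iEC libraries C to F, and at 33.0, 29.3, 39.9 and 21.9 CPM in the iREC libraries C to F. All iEC libraries were above all iREC libraries, and iREC F was the lowest. Its log2 fold change was -0.81 ± 0.19 (SE) with an adjusted p of 0.0117 by edgeR. HOXB4 (ENSG00000182742, chr17:48575513-48580111, minus strand), known for the expansion of blood progenitors, was at 42.2, 60.8, 65.0 and 54.8 CPM in the iEC libraries C to F, and at 35.2, 26.3, 36.3 and 15.9 CPM in the iREC libraries C to F. Here too the groups did not overlap and iREC F was the lowest, although iEC C and iREC E lay near each other. The log2 fold change was -0.97 ± 0.26 (SE) with an adjusted p of 0.0229 by edgeR, and 17.1% of its exon bases are shared with same-strand genes such as HOXB3. The call of HOXB4 did not hold without iEC E (adjusted p = 0.0647 by edgeR) or without iREC D (adjusted p = 0.0678 by edgeR).

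**Figure D2:**
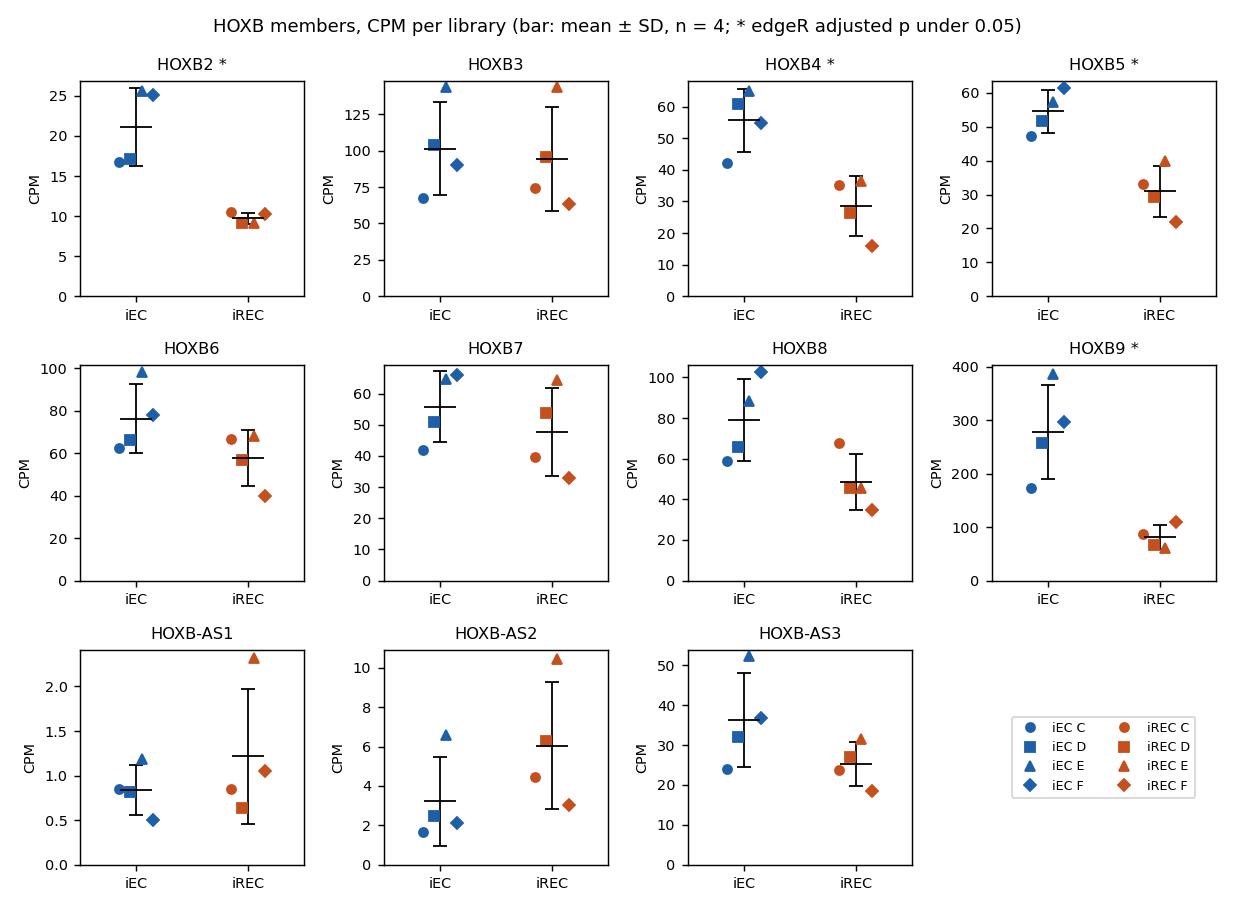
CPM of the tested HOXB members in each library (points, shaped by library letter) with the mean and SD of 4 libraries per group (bars), each panel with its own linear axis from 0. HOXB2, HOXB4, HOXB5 and HOXB9 (asterisks) show no overlap between iEC and iREC, and the groups overlap for HOXB3 and HOXB7.

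The HOXB genes between these did not pass the test. HOXB8, on the 3′ side of HOXB9, averaged 78.9 ± 20.2 CPM in iEC against 48.5 ± 13.8 CPM in iREC (SD, n = 4), and its log2 fold change was -0.70 ± 0.24 (SE) with an adjusted p of 0.0585 by edgeR. The iREC C library, at 67.7 CPM, lay within the iEC range of 58.9 to 103 CPM, and the adjusted p by edgeR was 0.0205 without that library and 0.0452 without iEC C. HOXB6 averaged 76.3 ± 16.2 and 57.8 ± 13.1 CPM, with a log2 fold change of -0.40 ± 0.21 (SE) and an adjusted p of 0.186 by edgeR. HOXB7 averaged 55.8 ± 11.5 and 47.6 ± 14.1 CPM, with a log2 fold change of -0.23 ± 0.23 (SE) and an adjusted p of 0.508 by edgeR. HOXB3 averaged 101 ± 31.9 and 94.3 ± 35.4 CPM, with a log2 fold change of -0.10 ± 0.29 (SE) and an adjusted p of 0.832 by edgeR. The sign for HOXB3 turned without iEC E (log2 fold change 0.11) and without iREC F (0.046). All 8 tested HOXB coding genes had a negative log2 fold change in the fit to all libraries, with a median of -0.76. HOXB3 took 11.6% to 15.4% of the HOXB coding counts in the iEC libraries and 18.04% to 30.7% in iREC, and HOXB7 took 6.95% to 8.51% and 9.61% to 13.96%. Those shares did not overlap between the groups, but shares of 1 total move together: a lower HOXB9 raises the share of every other gene.

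**Figure D3:**
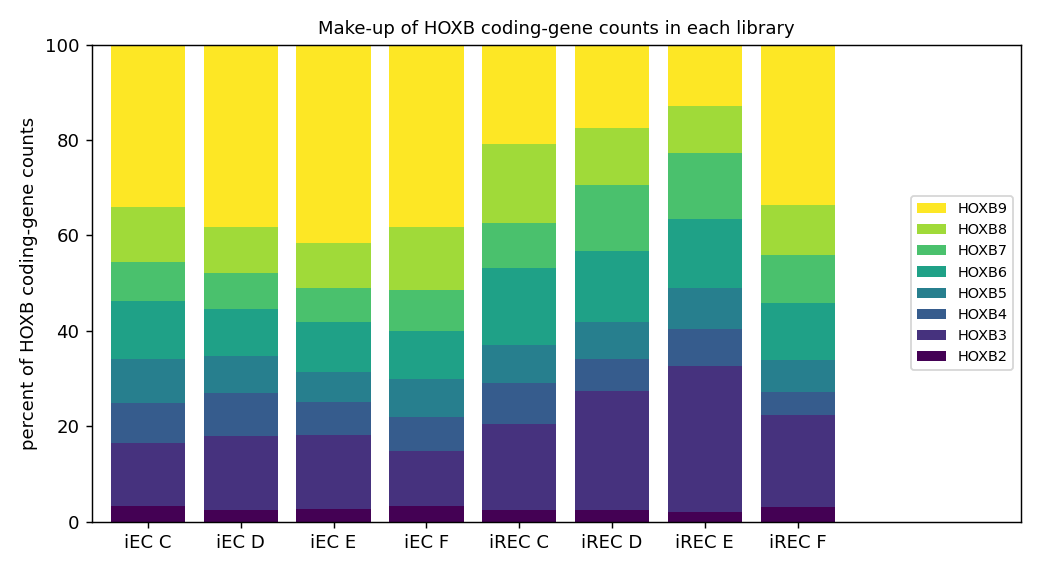
Share of the HOXB coding-gene counts taken by each gene (stacked, percent) in each of the 8 libraries. HOXB9 (yellow, top) takes 33.9% to 41.6% in the iEC libraries and 12.9% to 33.5% in the iREC libraries, with iREC F nearest to the iEC libraries.

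Among the antisense RNAs of the HOXB cluster, none was called. HOXB-AS3, a long RNA that runs opposite to the HOXB3 to HOXB6 interval, averaged 36.3 ± 11.9 in iEC and 25.2 ± 5.47 CPM in iREC, with a log2 fold change of -0.53 ± 0.25 (SE) and an adjusted p of 0.157 by edgeR. HOXB-AS2 averaged 3.22 ± 2.26 and 6.05 ± 3.22 CPM, a log2 fold change of 0.90 ± 0.52 (SE) with an adjusted p of 0.234 by edgeR, and HOXB-AS1 averaged 0.838 ± 0.279 and 1.22 ± 0.755 CPM (log2 fold change 0.53 ± 0.48). Exons of opposite-strand genes overlap 30.1% of the exon bases of HOXB-AS3 and 29.6% of those of HOXB-AS1, and none of those of HOXB-AS2. The libraries keep the strand, but whether the counting used it is not given in the sources used here, so reads of HOXB-AS3 and HOXB-AS1 and of their coding partners may not be told apart there. HOXB-AS4 stayed below the filter at 3 to 10 counts in iEC and 3 to 23 in iREC.

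By paralog position, the sum over clusters followed the HOXB member, since the other clusters added little. Position 9 (HOXA9, HOXB9, HOXC9 and HOXD9) summed to 279 ± 89.0 in iEC and 83.8 ± 23.0 CPM in iREC, a ratio of 0.300. Position 2 had a ratio of 0.470, position 4 of 0.525, and position 5 of 0.583. Positions 3, 6, 7 and 8 had ratios of 0.932, 0.804, 0.858 and 0.675, and their ranges overlapped between the groups. The order of the ratios did not follow the paralog number. Positions 10, 11 and 13 each summed to at most 1.38 CPM in any library, with HOXA10, HOXC10, HOXA11, HOXB13 and HOXC13 all below the filter. HOXC10 was at 15 counts in iREC F and at 0 or 1 in every other library, and HOXA11 was at 0 to 11 counts in iEC and 0 or 1 in iREC.

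**Figure D4:**
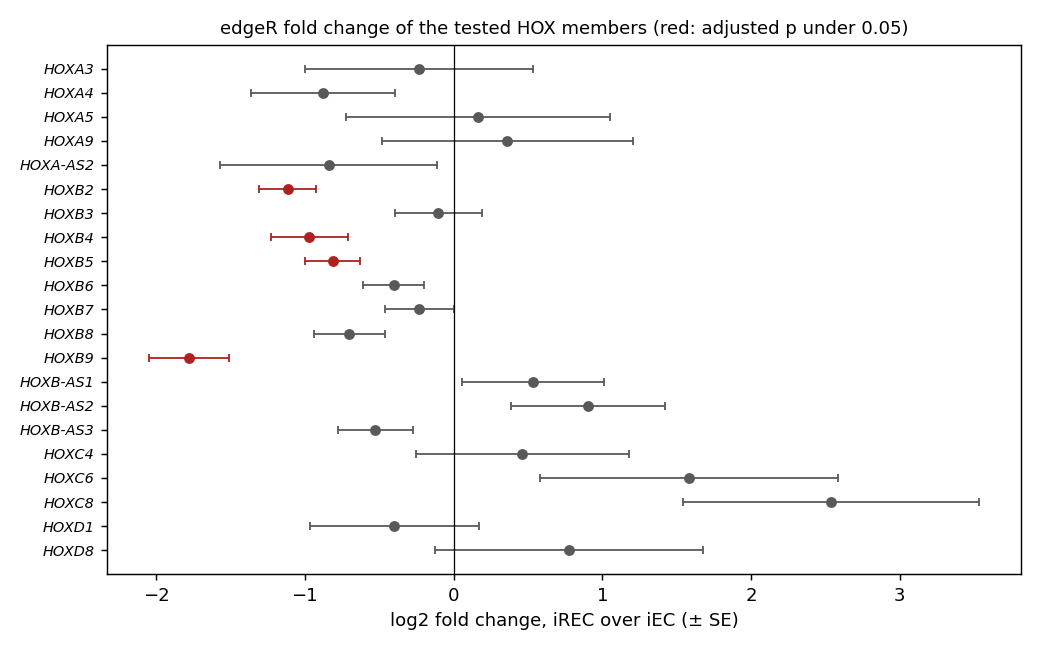
Fitted log2 fold change, iREC over iEC, with its SE (bars) for 21 of the 22 tested HOX members, ordered by cluster and paralog position, with calls by edgeR in red. The 4 calls are HOXB2, HOXB4, HOXB5 and HOXB9, and the bars of the HOXA, HOXC and HOXD members are wider than those of the HOXB coding genes.

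HOXA5 (ENSG00000106004, chr7:27141052-27143668, minus strand), described as a factor that holds endothelial cells in a resting state, was near the floor. Its counts were 8, 21, 14 and 31 in the iEC libraries C to F, or 0.520, 1.33, 0.83 and 2.22 CPM, and 0, 28, 12 and 42 in the iREC libraries C to F, or 0, 1.998, 0.733 and 2.75 CPM. The iEC range lay within the iREC range, and the libraries lettered D and F were the highest in both groups. HOXA5 had a log2 fold change of 0.17 ± 0.89 (SE) with an adjusted p of 0.912 by edgeR, and its sign turned in limma-voom and without iEC C, iREC D or iREC F. A library floor of 3 counts is 0.178 to 0.215 CPM, and the count of 0 in iREC C lies under it. HOXD8 (ENSG00000175879, chr2:176129694-176132695, plus strand) had counts of 2, 4, 13 and 28 in the iEC libraries C to F, or 0.130, 0.253, 0.769 and 2.004 CPM, and 3, 34, 10 and 33 in the iREC libraries C to F, or 0.196, 2.43, 0.611 and 2.16 CPM. The groups overlapped, with library C the lowest in each. HOXD8 had a log2 fold change of 0.78 ± 0.90 (SE) with an adjusted p of 0.567 by edgeR.

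The other HOXA members described here did not pass the test. HOXA3 and HOXA4, towards the 3′ end, averaged 2.21 and 1.33 CPM in iEC and 1.88 and 0.721 CPM in iREC, with adjusted p of 0.855 and 0.220 by edgeR. HOXA9, a gene of endothelial and blood progenitors, averaged 1.20 ± 1.02 and 1.53 ± 1.09 CPM (adjusted p = 0.790 by edgeR). HOXA-AS2, an RNA that runs opposite to HOXA3 and HOXA4, averaged 3.02 ± 1.78 and 1.68 ± 1.95 CPM (adjusted p = 0.440 by edgeR). Without iREC F its log2 fold change was -2.07 with an adjusted p of 0.0250 by edgeR, against -0.84 with all libraries. The remaining HOXA members, HOXA2, HOXA6, HOXA7, HOXA10, HOXA11, HOXA-AS3, HOXA10-AS and HOXA11-AS, were below the filter, at most 14 counts in any library.

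HOXC8 (ENSG00000037965, chr12:54009106-54012362, plus strand), a trunk gene, had the largest positive log2 fold change of the tested HOX members and 1 library carried much of it. Its counts were 3, 3, 15 and 25 in the iEC libraries C to F, or 0.195 to 1.79 CPM, and 13, 48, 18 and 189 in the iREC libraries C to F, or 0.851, 3.43, 1.10 and 12.4 CPM. The iREC F library stood far above the others, and iREC C lay below iEC E and F, so the groups overlapped. The log2 fold change was 2.54 ± 0.995 (SE) with an adjusted p of 0.0936 by edgeR, and without iREC F it was 1.22 with an adjusted p of 0.302. DESeq2 called HOXC8 higher (adjusted p = 0.0258 by DESeq2), and the authors' deposited table lists it at a log2 fold change of 2.51 with an adjusted p of 0.0233. That deposited table calls 6 HOX members in all, adding HOXB8 (adjusted p 0.0397 in the deposited table) to the 4 above and HOXC8. HOXC6 ranged from 0.0650 to 3.08 CPM in iEC and from 0.523 to 12.1 CPM in iREC, where iREC F was again the highest. Its log2 fold change was 1.58 ± 1.003 (SE) with an adjusted p of 0.283 by edgeR. Without iREC F the log2 fold change of HOXC6 was 0.35. HOXC4 averaged 0.701 and 0.978 CPM (adjusted p = 0.678 by edgeR) and its sign turned without iREC F. HOXC9, below the filter, was at 0, 3, 3 and 6 counts in the iEC libraries C to F and at 0, 10, 4 and 38 in the iREC libraries C to F. HOXD1 averaged 2.58 ± 1.54 and 1.95 ± 1.48 CPM (adjusted p = 0.648 by edgeR), and 58.1% of its exon bases are overlapped by opposite-strand RNAs such as HAGLR. HOXD9 was at 0 in all 4 iEC libraries and at 0, 7, 3 and 7 counts in the iREC libraries C to F, below the filter and too few for a fold change.

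Many of the HOXA, HOXC and HOXD members had a similar order of libraries. Of their 11 tested members, iREC F was the highest of the iREC libraries for 8 and iREC C the lowest for 9. Among the iEC libraries, F was the highest for 9 and C the lowest for 8, and E or F was the highest for all 11. The order by letter was thus partly alike in both groups. How many of all tested genes follow the same order was not counted, so it is not shown to be particular to these members. Some of the 11 share exon bases, such as HOXC4 with HOXC6, so they are not all separate readings. HOXD1 ran the other way, highest in iREC C and lowest in iREC F, while HOXA9 and HOXD8 were highest in iREC D and HOXA4 was lowest in iREC E. Markers of other cell types differed between the same libraries. The summed level of 14 mural and mesenchymal markers was 238 to 491 CPM in iEC, highest in iEC F. In the iREC libraries C to F it was 1022, 1244, 623 and 4503 CPM. Of the 11 tested, 4 were called higher and 2 lower. The summed level of 7 epithelial markers was 392 to 1177 CPM in iEC, also highest in iEC F. In the iREC libraries C to F it was 302, 1123, 426 and 4933 CPM, with 1 of 6 tested called higher and 0 lower. Most of the epithelial sum in iREC F was KRT8 at 3025 CPM and KRT18 at 1538 CPM, neither of them called. In that library CDH1 stood at 81.6 CPM and EPCAM at 3.28 CPM. The 5 pluripotency markers summed to 12.9 to 52.9 CPM in iEC, where iEC C was the highest. They summed to 58.1 to 518 CPM in iREC, again highest in iREC F. Most of the sum in iREC F was LIN28A, at 482 CPM. Of the 5, 2 were tested, and LIN28A was called higher (log2 fold change 3.40) although its groups overlapped. DNMT3B, also tested, was at 14.5 ± 9.95 CPM in iEC and 36.2 ± 0.853 CPM in iREC (SD, n = 4). Its groups did not overlap, but it was not called (log2 fold change 1.32, adjusted p = 0.0650 by edgeR). POU5F1, at 0.131 to 1.16 CPM, and NANOG, at 0 to 0.122 CPM, were below the filter. Neural markers summed to at most 16.6 CPM. The 8 endothelial markers summed to 6231 to 8262 CPM in iEC and 3793 (iREC F) to 8364 CPM in iREC. Of these, 3 were called lower and 1 higher by edgeR, each without overlap between the groups, as with the 4 called HOXB genes. PECAM1 had a log2 fold change of -1.57, ESAM of -0.94, CDH5 of -0.76 and the receptor TEK of 3.82. CDX2, a homeobox gene of the posterior embryo and gut that acts upstream of HOX genes, was at 0, 0, 0 and 7 counts in the iEC libraries C to F, and at 1, 13, 4 and 109 counts in the iREC libraries C to F, below the filter. The part of these markers, or of the cells they mark, in the HOX values was not tested. Without iREC D and iREC F, the iREC libraries with the highest mesenchymal, epithelial and pluripotency sums, the same edgeR test was run again and called 0 HOX members higher. HOXB9 stayed called lower (log2 fold change -1.92, adjusted p = 0.00802) and so did HOXB2 (-1.12, adjusted p = 0.0274), while HOXB5 (-0.59, adjusted p = 0.0616) and HOXB4 (-0.64, adjusted p = 0.0701) did not. HOXC8 had a log2 fold change of 0.35 (adjusted p = 0.822).

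**Figure D5:**
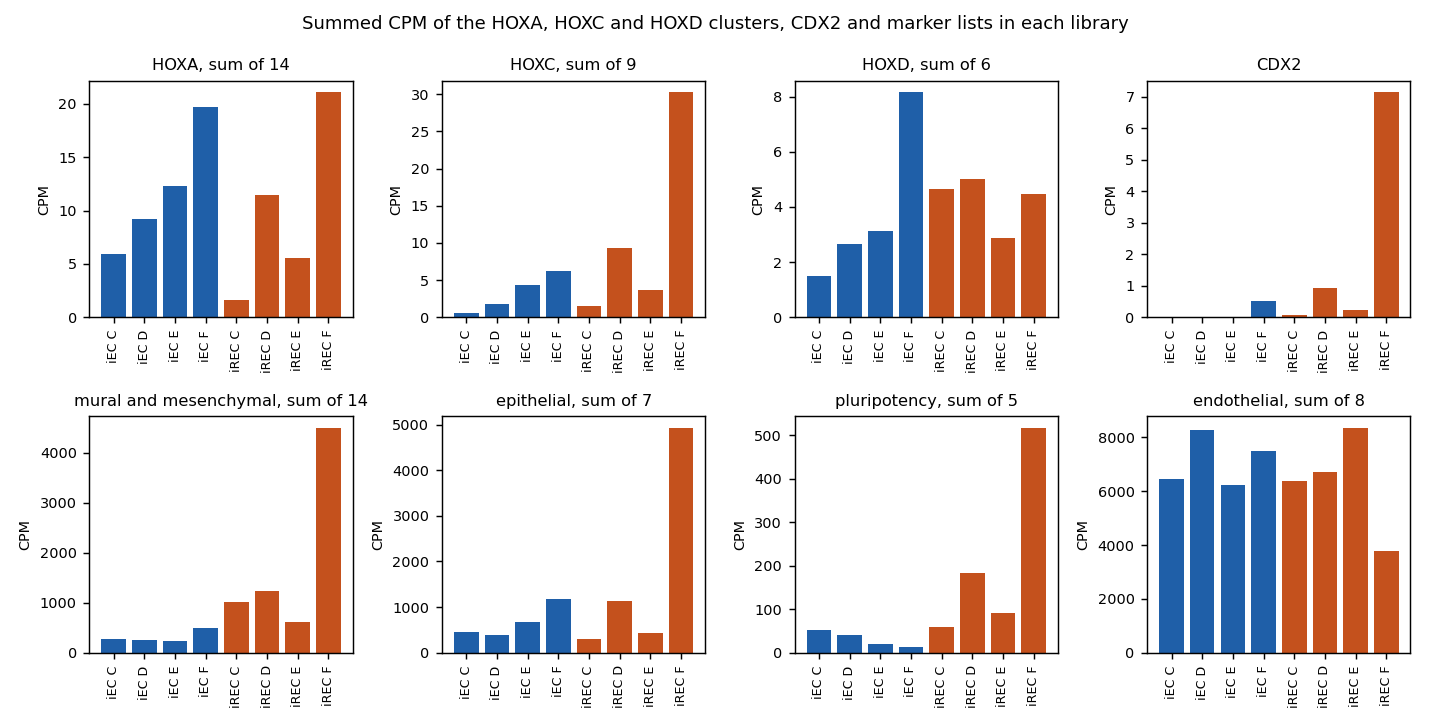
Summed CPM of the HOXA, HOXC and HOXD clusters, of CDX2 and of the marker lists in each library, iEC in blue and iREC in orange, each panel with its own axis from 0. The HOXC sum, CDX2 and the mesenchymal, epithelial and pluripotency sums are all highest in iREC F, where the endothelial sum is lowest.

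Sequences near 2 of these low members are shown because they hold the hexamer TTTATG (or CATAAA on the other strand), the core letters of the element that CDX factors are known to bind, and that of HOXB-AS2 as a HOXB transcript whose fold change was positive. RefSeq promoters on GRCh38.p14 matched 22 of the 42 members, with HOXB2 to HOXB9, HOXA5 and HOXC8 among the unmatched, and HOXC4 and HOXC5 share 1 window that is counted for each. The windows cover the 250 bases before the RefSeq start, which can differ from the gene start in the count table, 5′ to 3′ on the strand of the gene, with capitals for TTTATG or CATAAA and for TATAAA, and no capitals overlap another hit.
HOXA9 (chr7:27165538-27165787, minus strand, no annotated exon): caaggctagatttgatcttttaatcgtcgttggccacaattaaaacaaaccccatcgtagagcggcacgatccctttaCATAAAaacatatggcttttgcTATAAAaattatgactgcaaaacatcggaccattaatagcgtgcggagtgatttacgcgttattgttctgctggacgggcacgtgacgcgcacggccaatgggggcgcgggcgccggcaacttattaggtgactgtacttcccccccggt
HOXD8 (chr2:176129455-176129704, plus strand, 11 bases in the first exon of HOXD8): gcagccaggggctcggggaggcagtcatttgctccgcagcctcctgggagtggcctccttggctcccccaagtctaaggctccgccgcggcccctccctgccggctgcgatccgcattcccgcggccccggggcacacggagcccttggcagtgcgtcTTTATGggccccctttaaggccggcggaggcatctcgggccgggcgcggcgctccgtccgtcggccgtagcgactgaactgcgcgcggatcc
HOXB-AS2 (chr17:48555907-48556156, plus strand, no annotated exon, no hit): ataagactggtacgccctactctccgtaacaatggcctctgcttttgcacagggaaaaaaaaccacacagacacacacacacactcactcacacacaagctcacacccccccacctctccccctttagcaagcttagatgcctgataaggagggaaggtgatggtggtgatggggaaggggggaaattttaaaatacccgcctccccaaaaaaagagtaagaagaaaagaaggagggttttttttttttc
TTTATG was found on either strand in 5 of the 22 windows (HOXA-AS2, HOXA3, HOXA9, HOXB-AS4 and HOXD8), beside 10.02% of the 27305 windows in the RefSeq table. TATAAA was in 4 of 22 beside 11.1%, CCAAT in 15 of 22 beside 33.0%, and the PBX-HOX motif TGATTNAT in 1 of 22 (HOXA2) beside 2.59%. The median number of CpG pairs per window was 11 for the members and 11 for all. A match is a description of the letters, and no binding was measured.

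The clusters also hold microRNA genes, and their mature RNAs are shown because HOX transcripts are among their known targets. From RefSeq on GRCh38.p14, with the seed (bases 2 to 8) in capitals, they read as follows.
hsa-miR-196a-5p (MIR196A1, chr17:48632532-48632553, minus strand): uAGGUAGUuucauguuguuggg
hsa-miR-196b-5p (MIR196B, chr7:27169528-27169549, minus strand): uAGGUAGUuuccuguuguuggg
hsa-miR-10a-5p (MIR10A, chr17:48579904-48579926, minus strand): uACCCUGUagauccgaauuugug
Both miR-196 forms share the seed AGGUAGU, whose complement in a transcript is ACTACCT. In GENCODE 29 transcripts this heptamer lies after the stop codon in 6 of the 18 tested coding HOX members, HOXA5, HOXA9, HOXB6, HOXB7 and HOXC8 among them, beside 8.34% of 13004 tested genes. The miR-10a match ACAGGGT was in 3 of the 18, HOXA3 and HOXB3 among them, beside 15.05%. The stretch searched had a median of 906.5 bases in the members and 1416 in all. The best paired sites of HOXA9 and HOXB7 and both sites of HOXC8, with the heptamer in capitals, are these.
HOXA9: acaaaaggaaagaaACTACCTt
HOXB7: aacactgaaaaaatACTACCTa
HOXC8, 128 bases after the stop codon: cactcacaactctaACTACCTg
HOXC8, 864 bases after the stop codon: taaatctttaacatACTACCTa
None of the 6 members with the heptamer was among the 4 called. Only exact matches were counted, so a member without the heptamer is not shown to lack a site. Poly-A libraries do not measure mature microRNAs, and the row of MIR196A1 held 0 to 5 counts per library.

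Other RNAs of the clusters with names of their own were counted from a list. Of 15 listed, 6 were in the table and 3 were tested, with 0 called higher and 1 lower and a median log2 fold change of -0.86. HAGLROS, an antisense RNA of the HOXD cluster, was at 1.17, 0.948, 1.07 and 2.72 CPM in the iEC libraries C to F and at 0.0654, 0.428, 0.183 and 0.197 CPM in the iREC libraries C to F. All iEC libraries lay above all iREC libraries, at 1 to 38 counts, and the limit on strand given for HOXB-AS3 holds here too. Its log2 fold change was -2.72 ± 0.59 (SE) with an adjusted p of 0.00905 by edgeR. HAGLR, at the HOXD1 end, had a log2 fold change of -0.58 ± 0.28 (SE, adjusted p = 0.171 by edgeR), and HOTAIRM1, at the 3′ end of the HOXA cluster, had -0.86 ± 0.52 (SE, adjusted p = 0.263 by edgeR).

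Genes next to the clusters were also listed, and 2 of 15 tested were called higher and 2 lower by edgeR, with a median log2 fold change of -0.19 and 25.0% of all tested genes called in either direction. SKAP1, next to HOXB on the HOXB2 side, was at 3.14 ± 0.618 in iEC and 0.286 ± 0.204 CPM in iREC, a log2 fold change of -3.40 ± 0.49 (SE) with an adjusted p of 0.00119 by edgeR. SKAP2, beyond the 3′ end of HOXA, was at 42.4 ± 9.65 and 16.4 ± 1.84 CPM, a log2 fold change of -1.37 ± 0.18 (SE) with an adjusted p of 0.000646 by edgeR. HIBADH (0.69) and TAX1BP1 (0.46), beyond the 5′ end of HOXA, were called higher.

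Among the TALE cofactors, 3 of 7 tested were called higher in iREC and 0 lower by edgeR, with a median log2 fold change of 0.79. Of all tested genes, 13.2% were called higher and 11.7% lower, the shares to set beside this list and those that follow. PKNOX2 had a log2 fold change of 3.61 at 0.483 in iEC and 5.90 CPM in iREC. MEIS2 averaged 65.5 ± 13.4 CPM in iEC and 145 ± 23.8 CPM in iREC, a log2 fold change of 1.14. MEIS1, a partner known with HOXA9, had a log2 fold change of 0.79 ± 0.34 (SE) and an adjusted p of 0.118 by edgeR. PBX3 (-0.0052) and PKNOX1 (-0.27) were also tested and not called. The called cofactors were higher in iREC and the called HOXB genes lower, and a link between them was not tested.

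Polycomb genes gave 3 called higher and 2 lower of 22 tested by edgeR, with a median log2 fold change of 0.12. CBX7 (1.25), a chromodomain subunit of PRC1, and AEBP2 (1.03), an accessory subunit of PRC2, were among the higher. BMI1 (-0.72) and PHC2 (-0.64), both of PRC1, were lower, and the catalytic EZH2 was at 26.4 ± 12.9 and 38.7 ± 8.95 CPM (adjusted p = 0.310 by edgeR). Of 11 tested Trithorax genes and H3K27 demethylases, 2 were called higher (ASH2L, 1.56, and KDM6A, 0.78) and 2 lower (KDM6B, -0.83, and DPY30, -0.46), with a median of 0.15. ASH2L and DPY30 are core subunits of the MLL methyltransferase complexes, and KDM6A and KDM6B remove the Polycomb mark.

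The retinoic acid genes, which act upstream of the 3′ HOX genes, gave 5 called higher and 3 lower of 10 tested by edgeR, with a median log2 fold change of 1.03. ALDH1A1, a synthetic enzyme, was at least 374-fold higher in iREC, and CRABP1, a binding protein, at least 53.6-fold higher, both against the highest iEC floor of 3 counts per library, and the degrading enzyme CYP26B1 had a log2 fold change of 5.27. ALDH1A2 (-2.81), RARG (-1.94) and RARA (-0.76) were lower in iREC.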

How the data were processed

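Poly-A RNA of 8 samples was sequenced from libraries whose second strand was made with dUTP. Per the submitters' processing notes, fastp, HISAT2 2.0.5 and hg38 were used; the counting program and its use of strand are not given in the sources used here. Per the file headers, the table the authors deposited holds raw counts per gene, a normalized signal per sample, FPKM, log2 fold changes and p-values. Only the counts were tested; the deposited log2 fold changes and adjusted p-values are quoted for HOX members where named, and the deposited signal and FPKM values entered no result. All 8 count columns were mapped to samples.

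Genes were kept by filterByExpr of edgeR 4.0.16 (R 4.3.3; 15330 of 30386), libraries were scaled by TMM, and iREC was compared with iEC by glmQLFit and glmQLFTest with group as the only term, called at a Benjamini-Hochberg adjusted p under 0.05. SE was derived from the F statistic. Library totals were 14877502 to 16971865 counts in iEC and 13739364 to 15987839 in iREC. A floor of 3 counts per library was used; floors cover counting error only, as no molecular identifiers are described. Counts of 15330 genes were simulated with the means and library sizes of this comparison. On these, edgeR recovered 30.3% of genes changed 2-fold and 80.8% of those changed 4-fold, and 1.79% of its calls were false. With DESeq2, 18.1% of the calls were false. Only 198 of 15012 tested genes were changed in the simulation, whereas edgeR called 25.0% of tested genes in the data, so these rates may differ there.

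Of 53 GENCODE 29 gene entries with HOXA to HOXD names, 42 matched by identifier, start and end, and the other 11 were not analysed here (HOXA13, HOXB1, HOXC11, HOXC12, HOXD10, HOXD11, HOXD12 and HOXD13 among them). Coordinates are 1-based. The members, gene lists and tests were chosen with earlier results of these data known. Some named items are not reported here. The rule named each tested member. It gave values in every sample for called members reaching a mean of 1 CPM and for HOXA5, HOXB5 and HOXD8. It also named up to 3 called genes per direction of each list. Values in every sample for HOXC8, HOXC9, HOXD9, CDX2 and HAGLROS were chosen after they were seen. So were the values of EZH2, MEIS1, POU5F1, NANOG, DNMT3B, KRT8, KRT18, CDH1 and EPCAM. Alternatives were DESeq2 1.42.0, its size factors within edgeR, no scaling beyond library size, all genes without a filter, a filter of 1 CPM in all samples of a group, limma-voom (limma 3.58.1), the letter as a block, and each sample left out; leaving out iREC D and F together was added after the data were seen.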

Additional observations from a re-analysis of the deposited data

Results flagged for a closer look

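In the iEC group, HOXB-AS2 stood at 6.57 CPM in library E, apart from the other 3 libraries at 1.69 to 2.47 CPM. In the iREC group, HOXA-AS2 stood at 4.59 CPM in library F, apart from the other 3 at 0.523 to 1.04 CPM. Both were marked because the gap to the nearest library exceeded, as a share of the group's range, Dixon's critical value for 4 libraries. Chance marks about 1 in 20 groups, and 54 groups were checked, so 2.7 would be marked by chance. Without iREC F, HOXA-AS2 was called lower by edgeR (log2 fold change -2.07, adjusted p = 0.0250), and no call of HOXB-AS2 was made without iEC E.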

How the results depend on the processing

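HOXB9 and HOXB2 were called lower under every alternative run. With 1 sample left out, edgeR called 2660 to 4214 genes (3829 with all samples), 3 to 5 HOX members lower and 0 higher. DESeq2 called 4664 genes, 5 HOX members lower and 1 higher. The replicate letter as a block gave 3334 genes, 4 HOX members lower and 1 higher (HOXC8, adjusted p = 0.0468 by edgeR). Same-letter libraries deviated together with correlations of 0.168 (C), -0.079 (D), 0.029 (E) and 0.25 (F). Only C and F correlated best with their own letter, so the letters were not taken to pair the samples. The HOXA, HOXC and HOXD members did share part of their order by letter, with C often lowest and F often highest in both groups. The share of all tested genes with that order was not counted. With no filter, 5 HOX members were called lower, HOXB8 among them (adjusted p = 0.0495), and the median log2 fold change moved to 0.15 over all genes and to 0.32 over all 42 members.

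Signs turned only for members that were not called. Without iREC D and F together the log2 fold change was -0.22 for HOXC6, -0.94 for HOXD8, 0.13 for HOXD1, -1.46 for HOXC4, -0.47 for HOXA9, 0.10 for HOXB3 and -1.70 for HOXA5. HOXA5 was at -0.84 in limma-voom, -0.21 with the block, -0.10 without iEC C, -0.070 without iREC D and -0.43 without iREC F. HOXA9 was at -0.030 without iEC C and -0.087 without iREC D, HOXD1 at 0.075 and HOXA3 at 0.049 without iEC F, HOXA3 at 0.13 without iREC C and 0.037 without iREC E, HOXB3 at 0.11 without iEC E and 0.046 without iREC F, and HOXC4 at -0.0014 without iREC F. With 1 sample left out at a time, these ranged from -1.07 to 0.075 (HOXD1), -0.0014 to 0.80 (HOXC4), -0.087 to 1.03 (HOXA9), -0.38 to 0.11 (HOXB3), -1.50 to 0.13 (HOXA3) and -0.43 to 0.61 (HOXA5). The cause was not tested. For the HOXA, HOXC and HOXD members, SEs of 0.49 to 1.003 on the log2 scale limited what could be called.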
